A study of Homo sapiens with 6 samples.

Results

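The genes described here are 9 components of TGF-beta signaling, namely the ligand genes TGFB1, TGFB2 and TGFB3, the receptor genes TGFBR1 and TGFBR2, and the effector and target genes SMAD3, SMAD7, TGFBI and THBS1. They were measured in HCC827 cells, a long-established line from a human lung adenocarcinoma that carries a deletion in an exon of EGFR. All 9 genes had a probe set of their own, with 1 row per gene and 0 rows shared with another gene, among 14232 genes that had such a row. By the sample titles, the 3D group held 3 arrays of HCC827 cells embedded in Matrigel, a basement membrane extract. The paper calls the 3D cultures of the arrays spheroids, and its methods form spheroids in hanging drops or in HydroCell plates. The study's methods describe both free spheroids and spheroids in Matrigel with collagen type I, and the sources do not settle the exact matrix of these samples. The 2D group held 3 arrays of HCC827 cells grown in 2 dimensions without coating, so that dimensionality and, if the labels hold, matrix differed together and cannot be told apart. The labels name no drug treatment in either group. The 9 genes were chosen by pathway membership with the 3D minus 2D differences of these arrays known, and TGFB2 and THBS1 were singled out by those differences. Hence all differences of the 9 genes are given as a description, with their standard errors and without a test.

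TGF-beta ligands are secreted in a latent complex and must be released before they act. The active ligand binds the type II receptor encoded by TGFBR2, which phosphorylates the type I receptor encoded by TGFBR1. The activated receptor in turn phosphorylates SMAD2 and SMAD3, which enter the nucleus with SMAD4 and regulate transcription. SMAD7 is induced by the pathway and blocks the type I receptor. Thrombospondin 1, the product of THBS1, is a matrix glycoprotein that can release TGF-beta from its latent complex, and its gene is itself induced by TGF-beta. In lung epithelium the pathway is known for growth arrest and for epithelial-mesenchymal transition.

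The signals were log2 values made by the authors with RMA, a method that corrects background and gives every array the same distribution, here with a median of 6.26 over all probe sets. Each array is 1 sample, and the number of arrays limits the precision. Separate cultures are not stated for the replicates in the labels, so that all spreads and p-values measure only the variation between these arrays, which may be technical. Across all 22011 probe sets, 32 were higher and 52 were lower in 3D than in 2D (limma, adjusted p under 0.05), but 0 passed when any 1 of the 2D arrays was left out. By limma's array weights, which rate how well an array fits its group, 3D replicate 2 had the lowest weight of 0.314, while the other arrays had weights of 0.770 to 2.33. Markers of epithelial cells were bright, with a mean log2 signal over 8 genes of 9.18 to 9.40 in 3D and 9.83 to 9.94 in 2D. Of these 8 markers 0 were higher and 0 lower past the threshold, against 0.145% and 0.236% of all probe sets. At an unadjusted p below 0.05 (limma), 5 had lower 3D signals, against 7.94% of all probe sets. All 8 had a difference below 0, with a median log2 difference of -0.69. The mean over 9 markers of fibroblasts and pericytes was 4.92 to 5.05 in 3D and 4.80 to 4.91 in 2D. The mean over 7 endothelial markers was 5.33 to 5.44 in 3D and 5.28 to 5.31 in 2D, and that over 6 leukocyte markers was 5.55 to 5.90 in 3D and 5.44 to 5.51 in 2D. CD68, 1 of these 6, was as bright as the epithelial markers, at 9.40 to 10.09 in 3D and 9.66 to 9.99 in 2D. An unadjusted p below 0.05 (limma) was reached by 1 fibroblast and pericyte marker, lower in 3D, and 0 endothelial markers. It was also reached by 2 leukocyte markers, higher in 3D, against 7.17% of all probe sets. The sample titles name HCC827 cells and no other cell type in both groups. The part of these marker shifts in the results below was not tested. In bulk RNA a change in every cell cannot be told apart from a larger change in some cells.

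The promoters of TGFB2 and THBS1 are shown because these genes had the lowest 3D signals relative to 2D among the 9. The 250 bases before the annotated start were taken from RefSeq (GRCh38.p14). Capitals mark the letters CAGAC, the core that SMAD proteins contact, GGAATG, the core that TEAD factors contact, and TATAAA, the TATA box, each on either strand.
TGFB2, chr1:218345086-218345335, plus strand: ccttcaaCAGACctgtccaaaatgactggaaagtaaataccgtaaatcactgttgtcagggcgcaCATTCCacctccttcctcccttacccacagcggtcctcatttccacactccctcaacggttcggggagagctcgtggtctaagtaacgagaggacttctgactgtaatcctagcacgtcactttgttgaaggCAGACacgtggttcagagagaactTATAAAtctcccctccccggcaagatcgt
THBS1, chr15:39580829-39581078, plus strand: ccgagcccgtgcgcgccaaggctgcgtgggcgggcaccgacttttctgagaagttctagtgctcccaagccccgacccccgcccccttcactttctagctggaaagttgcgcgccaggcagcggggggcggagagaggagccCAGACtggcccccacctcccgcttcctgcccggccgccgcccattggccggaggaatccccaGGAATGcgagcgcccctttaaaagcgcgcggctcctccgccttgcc
Windows that run 50 bases past the start were searched in the same way for all 35116 promoters of the table. The letters CAGAC (or GTCTG) occurred at 2 places for TGFB2 and 1 place for THBS1, and 45.3% of all promoters held them. The letters GGAATG (or CATTCC) occurred once in each, against 14.0% of all promoters. A TATAAA (or TTTATA) was found for TGFB2, 29 bases before the start, and not in the THBS1 window, while 11.5% of all promoters held one. The TGFB2 window also held TGACGT (or ACGTCA), the core of the cAMP response element, which 7.98% of all promoters hold. It held CACGTG, an E-box, as well, which 7.26% of all promoters hold and which shares a base with the CAGAC that lies 53 bases before the start. These matches describe letters and not occupied sites.

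The ligand gene TGFB2 was lower in 3D, while the other ligand genes overlapped between the groups. TGFB2, which encodes the isoform known for its dependence on the co-receptor betaglycan, had log2 signals of 8.32, 8.15 and 8.29 in the 3D arrays and 9.60, 9.70 and 9.85 in the 2D arrays. All 3D arrays lay below all 2D arrays, and the gap of 1.28 between the groups exceeded the range within either group. The means were 8.25 ± 0.095 in 3D and 9.72 ± 0.13 in 2D (SD, n = 3 each), a log2 difference (3D minus 2D) of -1.46 (standard error 0.15), which is 2.76-fold lower in 3D. The difference ranked 36 from the lowest among 14232 genes and stayed between -1.52 and -1.40 when single arrays were left out. In contrast, TGFB1, which encodes the most widely expressed isoform, had log2 signals of 5.57, 5.80 and 5.78 in 3D and 5.80, 5.78 and 5.73 in 2D. Its log2 difference was -0.052 (standard error 0.14), and 0.020 without 3D replicate 1. TGFB3, the third isoform, had log2 signals of 5.33, 5.76 and 5.55 in 3D and 5.37, 5.69 and 5.45 in 2D. Its log2 difference was 0.047 (standard error 0.17), and leaving out 3D replicate 2 gave -0.059, leaving out 2D replicate 1 gave -0.017. The signals of TGFB1 and TGFB3 lay below the median of the arrays in all 6 arrays, and RMA values carry no detection call, so that a change of a weakly expressed transcript may not be detectable at this brightness.

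**Figure D1:**
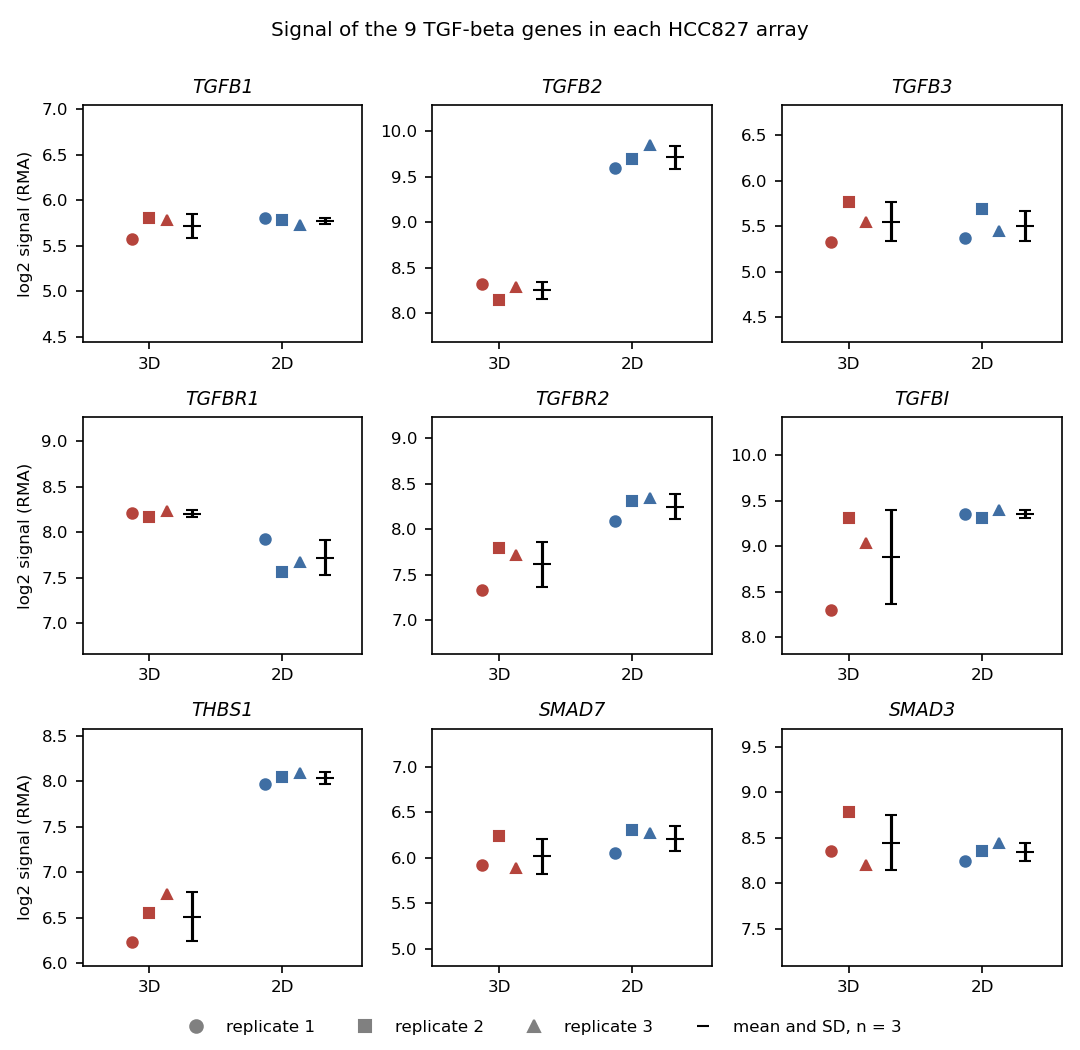
Log2 signal (vertical axis, the same span in every panel) of each of the 9 genes in the 3D arrays (left, red) and the 2D arrays (right, blue), with the replicate number as the symbol and the mean and SD (n = 3) as the black bar. TGFB2 and THBS1 show the widest gaps between the groups, of 1.28 and 1.21, while TGFBI in 3D spans 8.30 to 9.31.

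The receptor genes lay on opposite sides of 0. TGFBR1, which encodes the type I receptor kinase, had log2 signals of 8.21, 8.17 and 8.24 in 3D and 7.93, 7.56 and 7.68 in 2D. Every 3D array was above every 2D array, with a gap of 0.24, and the log2 difference was 0.48 (standard error 0.16), or 1.40-fold higher in 3D. Among the 9 genes TGFBR1 was the 1 gene whose arrays were all higher in 3D, and its 3D arrays were close together (SD 0.038), while its 2D arrays had an SD of 0.19. TGFBR2, which encodes the ligand-binding type II receptor, had log2 signals of 7.33, 7.79 and 7.72 in 3D and 8.09, 8.31 and 8.34 in 2D. Every 3D array was below every 2D array, with a gap of 0.30. The log2 difference was -0.63 (standard error 0.18), or 1.55-fold lower in 3D. Neither sign turned when single arrays were left out, with log2 differences of 0.40 to 0.59 for TGFBR1 and -0.72 to -0.49 for TGFBR2. TGFBR3, which encodes betaglycan and was chosen after its values were seen, differed by -0.23 on the log2 scale with a standard error of 0.14 and did not pass (limma, adjusted p = 0.472).

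The SMAD genes overlapped between 3D and 2D. SMAD3, the receptor-activated transcription factor of the pathway, had log2 signals of 8.36, 8.78 and 8.20 in 3D and 8.24, 8.35 and 8.44 in 2D. Its log2 difference was 0.11 (standard error 0.19), and it was -0.062 without 3D replicate 2, the array with the highest SMAD3 signal. SMAD7, the inhibitory SMAD, had log2 signals of 5.92, 6.24 and 5.89 in 3D and 6.05, 6.31 and 6.27 in 2D. The group ranges crossed, and the log2 difference of -0.19 (standard error 0.17) was about as large as its error. Leaving out 3D replicate 2 gave -0.30, and leaving out 3D replicate 3 gave -0.13.

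THBS1 and TGFBI, which encode matrix proteins that TGF-beta induces, had lower means in 3D, but the sizes and the spreads differed. THBS1 had log2 signals of 6.23, 6.55 and 6.76 in 3D and 7.97, 8.05 and 8.09 in 2D. All 3D arrays lay below all 2D arrays by at least 1.21. The means were 6.51 ± 0.27 in 3D and 8.04 ± 0.060 in 2D (SD, n = 3 each), a log2 difference of -1.52 (standard error 0.18), which is 2.87-fold lower in 3D. The difference ranked 28 from the lowest among 14232 genes and stayed between -1.65 and -1.38 when single arrays were left out. TGFBI had log2 signals of 8.30, 9.31 and 9.03 in 3D and 9.35, 9.31 and 9.40 in 2D. The groups were parted by 0.0040, and 3D replicate 1 lay well below the rest. The log2 difference of TGFBI was -0.47 (standard error 0.25), and it shrank to -0.18 without 3D replicate 1, so that its size rests on this array.

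Of the 9 genes, 5 had arrays that did not overlap between the groups, 1 of them higher and 4 lower in 3D. The 4 include TGFB2 and THBS1, and also TGFBI, whose groups were parted by 0.0040. Over all genes, 14.3% did not overlap and were higher, and 9.75% did not overlap and were lower. In the fit across all probe sets 2 of the 9 genes, TGFB2 and THBS1, passed the threshold with lower signals and 0 with higher signals, where 0.236% of all probe sets were lower and 0.145% higher past the threshold (limma, adjusted p under 0.05). The number past the threshold was 0 without 3D replicate 1 and without each of the 2D arrays in turn. The median log2 difference of the 9 genes was -0.19, against 0.071 over all genes, with 3 above 0 and 6 below 0. Since TGFB2 and THBS1 were chosen for these values, nothing about the pathway is read from these counts or from this median.

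**Figure D2:**
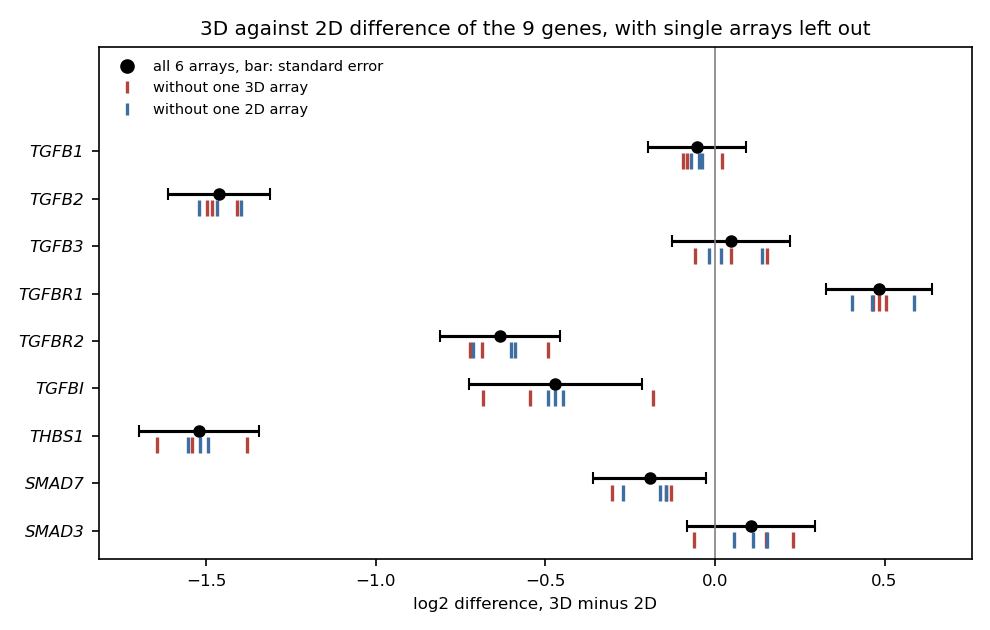
Log2 difference (3D minus 2D, horizontal axis) of each of the 9 genes over all 6 arrays (black, bar for the standard error) and with each array left out in turn (red ticks for 3D arrays, blue ticks for 2D arrays). TGFB2 and THBS1 stay below -1.3 throughout, TGFBI reaches -0.18 without one 3D array, and the ticks of TGFB1, TGFB3 and SMAD3 fall on both sides of 0.

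To see whether the rest of the pathway moved with these genes, 137 other genes in 9 lists were examined, and 1 passed the test. BHLHE40 was lower in 3D, 0 genes were higher and 136 did not pass (limma, adjusted p under 0.05, where 0.382% of all probe sets passed in either direction). An unadjusted p below 0.05 was reached by 22 of these genes with higher and 12 with lower 3D signals, and by 7.17% and 7.94% of all probe sets in these directions. A further 13 listed genes had only probe sets shared with other genes and are not counted, and 7 were not analysed here.

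Among 34 measured genes that TGF-beta is known to induce, 0 were higher, 1 was lower and 33 did not pass, and the median log2 difference was 0.13. In limma 8 with higher and 5 with lower 3D signals had an unadjusted p below 0.05, against 7.17% and 7.94% of all probe sets. The groups did not overlap for 9 with higher and 6 with lower 3D signals, against 14.3% and 9.75% of all genes. BHLHE40, which encodes a transcriptional repressor also induced by hypoxia, had log2 signals of 7.91, 8.27 and 8.23 in 3D and 9.25, 9.39 and 9.37 in 2D. The groups did not overlap, and BHLHE40 fell in 3D by a factor of 2.30, or -1.20 ± 0.16 on the log2 scale (standard error, limma, adjusted p = 0.0329). The call was lost without 3D replicate 1 (adjusted p = 0.10) and without 2D replicates 1, 2 and 3 in turn (adjusted p = 0.175, 0.128 and 0.197). Other genes of this list, chosen after their values were seen, had differences in opposite directions that missed the threshold. CCN1 and CCN2, which encode secreted matricellular proteins, differed by -1.03 and -0.96 on the log2 scale (adjusted p = 0.0636 and 0.13, limma). TPM1, which encodes an actin-binding tropomyosin, had -0.71 (adjusted p = 0.0984). FN1, which encodes the matrix protein fibronectin, had log2 signals of 9.61, 9.87 and 9.92 in 3D and 8.80, 8.86 and 8.93 in 2D. Its arrays were all higher in 3D, by 0.93 ± 0.15 on average (standard error, adjusted p = 0.0636). MMP9, which encodes a gelatinase, had a log2 difference of 1.02 (adjusted p = 0.113). KLF10 and IL11 were also higher in 3D, by 0.87 and 0.72 (limma, adjusted p = 0.172 and 0.212). With the dimmest 40% of probe sets left out, CCN1 (adjusted p = 0.0355) and FN1 (adjusted p = 0.0355) passed, and with array weights CCN1, FN1, MMP9 and TPM1 passed, with unequal signs as before.

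**Figure D3:**
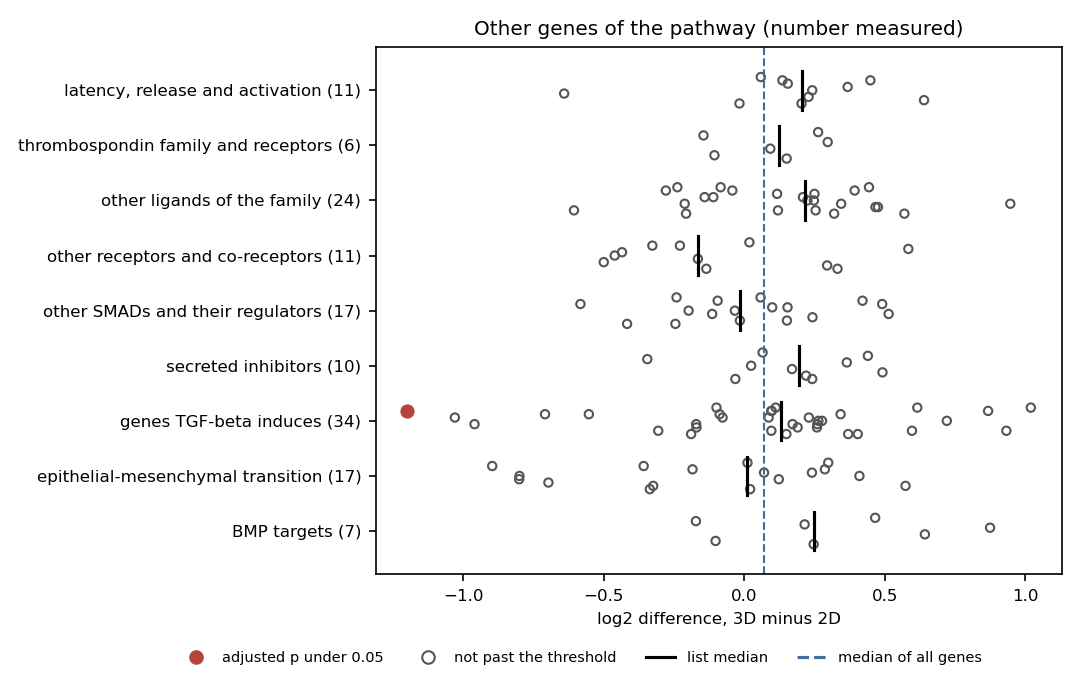
Log2 difference (3D minus 2D, horizontal axis) of the 137 other pathway genes in 9 lists, with the number measured in brackets, black lines for list medians and a dashed blue line for the median of all genes at 0.071. The 1 filled point is BHLHE40, and the open points of every list fall on both sides of 0.

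Genes that act outside the cell on the ligands did not pass the test. Of 11 genes for latency, release and activation limma called 0. An unadjusted p below 0.05 was found for 2 with higher and 1 with lower 3D signals, against 7.17% and 7.94% of all probe sets. Past the threshold were 0.382% of all probe sets. The list had a median log2 difference of 0.20. LTBP1, which encodes a protein that binds latent TGF-beta in the matrix, had log2 signals of 5.94, 5.86 and 6.43 in 3D and 5.31, 5.48 and 5.52 in 2D, a difference of 0.64 ± 0.19 (standard error, adjusted p = 0.209). ITGB8, which encodes the integrin chain that activates latent TGF-beta together with alpha v, differed by -0.64 ± 0.22 (standard error, adjusted p = 0.256). Leaving out single arrays brought ITGB8 to -0.40 at its smallest.
Of 6 other thrombospondin genes and thrombospondin receptors limma called 0, and 0 had an unadjusted p below 0.05, with a median of 0.12. Leaving out dim probe sets removed part of the list, THBS4 included. The median of -0.11 was then the value of THBS3, and no shift of the list is read from it. THBS4 and COMP, relatives of THBS1, differed by 0.26 and 0.30 (adjusted p = 0.468 and 0.477). THBS2 differed by 0.093, THBS3 by -0.11, and the receptor genes CD36 and CD47 by 0.15 and -0.15, all 4 named to complete the list. The difference between THBS1 and its relatives was not tested. Of 10 secreted inhibitors limma called 0, and 0 had an unadjusted p below 0.05, with a median of 0.20. CER1, a nodal and BMP antagonist, and FST, which encodes the activin-binding follistatin, differed by 0.44 and -0.35 (adjusted p = 0.398 and 0.404).

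Of 24 other ligands of the family limma called 0, while 4 with higher and 1 with lower 3D signals had an unadjusted p below 0.05. For this and the next lists, the shares over all probe sets were 0.382% called, and 7.17% higher and 7.94% lower at that unadjusted p. The median of the ligands was 0.22 on the log2 scale. Leaving out dim probe sets removed part of the list, BMP3 included. The median of -0.042 was then the value of INHBB, and no shift of the list is read from it. BMP3 and GDF10, related members of the BMP group, differed by 0.95 and 0.57 (adjusted p = 0.216 and 0.225). Of 11 other receptors and co-receptors limma called 0, while 1 with a higher and 0 with a lower 3D signal had an unadjusted p below 0.05, and the median was -0.17. BAMBI, which encodes a receptor without a kinase domain that dampens TGF-beta signals, had a log2 difference of 0.58 (adjusted p = 0.254). BMPR2, the type II receptor of BMPs, had -0.50 (adjusted p = 0.358). Of 17 other SMADs and regulators of SMADs limma called 0, while 3 with higher and 1 with lower 3D signals had an unadjusted p below 0.05. The median of -0.015 changed sign when single arrays were left out, ranging from -0.031 to 0.087. PPM1A, a phosphatase of SMADs, differed by 0.42 and USP15, a deubiquitinase that acts on the pathway, by 0.49 (adjusted p = 0.268 and 0.274).

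Readouts of epithelial-mesenchymal transition and of BMP signals did not pass the test either, apart from 3 genes with array weights. Of 17 transition factors and markers limma called 0, while 2 with higher and 4 with lower 3D signals had an unadjusted p below 0.05. For these counts and those of the BMP targets, the shares over all probe sets were 0.382% called, and 7.17% higher and 7.94% lower at that unadjusted p. The median of 0.012 ranged from -0.12 to 0.010 when single arrays were left out, and it was -0.12 without 3D replicate 1. ESRP1, which encodes a splicing factor of epithelial cells, had log2 signals of 9.94, 9.91 and 10.20 in 3D and 10.79, 10.75 and 10.91 in 2D. CDH2, which encodes N-cadherin, a mesenchymal marker, had signals of at most 4.46 in 3D and at least 4.98 in 2D, below the median of every array. The log2 differences were -0.80 for ESRP1 and -0.90 for CDH2 (adjusted p = 0.0887 and 0.118, limma), and both passed with array weights (adjusted p = 0.040 and 0.0489). The remaining genes of the list with an unadjusted p below 0.05, named after their values were seen, were the epithelial genes CLDN4 (-0.80) and GRHL2 (-0.70) and the mesenchymal transcription factor genes TWIST1 (0.57) and ZEB2 (0.41), with adjusted p of 0.225, 0.221, 0.208 and 0.305. VIM, which encodes the mesenchymal filament protein vimentin, differed by 0.012, and CDH1, which encodes the epithelial E-cadherin, by -0.34. Both are named outside the rule, and neither passed (limma, adjusted p = 0.978 and 0.427). Of 7 BMP targets limma called 0, while 2 with higher and 0 with lower 3D signals had an unadjusted p below 0.05, and the median was 0.25. ID1 and ID2, which encode inhibitors of helix-loop-helix factors and are induced by BMPs, differed by 0.87 and 0.64 (adjusted p = 0.0951 and 0.219). With array weights ID1 passed (adjusted p = 0.040).

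Genes with a pattern most like TGFB2 and THBS1 were ranked by Pearson's r of the log2 signals over the 6 arrays. The arrays fall into the 3D and the 2D group, so that r mainly records a clean gap between them, and 136 genes (0.956% of all others) reached an r of 0.95 with TGFB2 and 190 (1.34%) with THBS1. The 5 genes most like TGFB2 were RAB11FIP1 (r = 0.9963), PHKA2 (r = 0.9959), ANKRD13C-DT (r = 0.9950), CAV1 (r = 0.9944) and NTNG1 (r = 0.9936). CAV1, which encodes the caveolae coat protein caveolin 1, had a mean log2 signal of 9.23 ± 0.16 in 3D and 11.02 ± 0.035 in 2D (SD, n = 3 each). The 5 genes most like THBS1 were POGZ (r = 0.9985), DEFA5 (r = 0.9951), PEG10 (r = 0.9947), BHLHE40 (r = 0.9947) and SMARCAL1 (r = 0.9944). PEG10, an imprinted gene derived from a retrotransposon, had a mean log2 signal of 6.66 ± 0.28 in 3D and 8.46 ± 0.19 in 2D (SD, n = 3 each). CAV1 and PEG10 had the largest differences of the genes named here, and a high r does not record size. PHKA2, POGZ and DEFA5 differed by -0.58, -0.49 and -0.34 and did not pass (limma, adjusted p = 0.129, 0.195 and 0.302). RAB11FIP1 encodes a partner of RAB11 in recycling endosomes, PHKA2 a subunit of phosphorylase kinase, NTNG1 a netrin and SMARCAL1 an enzyme that rewinds DNA. BHLHE40 was the 1 gene of the TGF-beta lists among these 10. THBS1 itself ranked 61 among the genes most like TGFB2 (r = 0.971), whereas TGFBR1 had the opposite pattern (r = -0.921).

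**Figure D4:**
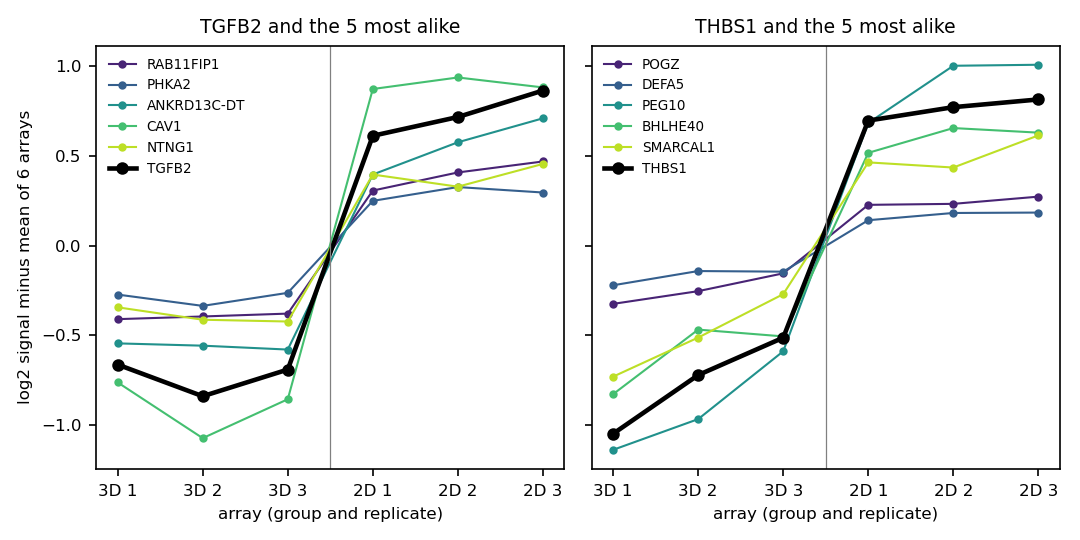
Log2 signal minus the gene's mean over the 6 arrays (vertical axis) for TGFB2 (left, black) and THBS1 (right, black), each with the 5 genes of highest r, across the 3D and 2D arrays (horizontal axis). Lines join the values of a gene and the order of replicates carries no meaning. All 12 curves lie below 0 in the 3D arrays and above 0 in the 2D arrays.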

How the data were processed

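Total RNA of HCC827 cells in 3D and 2D (3 samples each) was hybridized to Affymetrix human exon arrays, and the groups follow the sample titles. The authors deposited log2 signals per transcript cluster, made with RMA through the package oligo of R (versions and genome build not given in the sources used here). RMA equalizes the distribution of every array, so that centring on the median changes no value. The values were used as given. Gene names came from the platform annotation, updated by Entrez ID through RefSeq (0 symbols changed). The 14232 genes are those with a probe set that carries 1 symbol, the one with the highest mean signal where there were several.

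The contrast of 3D with 2D was tested 2-sided by limma 3.58.1 under R 4.3.3 over all 22011 probe sets, with Benjamini-Hochberg adjustment and a threshold of 0.05. The methods name this test and adjustment. The genes, lists and rules were chosen with earlier results of these data known. Besides the 9 genes, the text names list genes past the threshold (at most 4 per list), otherwise the 2 with the smallest unadjusted p, and the 5 genes most like TGFB2 and THBS1. Exceptions are marked. The fit was tested on simulated data with independent noise in every array. Unequal array weights and correlation between arrays were not part of that test. The alternatives were a minimum log2 difference of 1, a threshold of 0.01, a filter on dim probe sets, median centring, other priors, array weights, a block for the replicate number, single arrays left out and, for the 9 genes, all rows with the symbol. Figures were drawn with matplotlib 3.10.9. Depth does not apply to arrays.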

Additional observations from a re-analysis of the deposited data

How the results depend on the processing

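With array weights the log2 differences of the 9 genes moved by less than the pooled SD of the groups. With 3 arrays per group, leaving out 1 array cannot move a difference by as much as that SD. Those fits therefore show only the sizes of the moves, and TGFBI went from -0.47 to -0.18 without 3D replicate 1. Median centring, the replicate block, the dim filter and the use of all rows left the difference of each remaining gene unchanged. The sign of TGFB1, TGFB3 and SMAD3, whose groups overlap, turned without single arrays. The filter on dim probe sets removed TGFB1 and TGFB3, which have no value there. With array weights 132 probe sets were higher and 283 lower, and 8 genes of the pathway lists passed (BHLHE40, CCN1, CDH2, ESRP1, FN1, ID1, MMP9 and TPM1). With dim probe sets left out 105 probe sets were lower and 3 genes of the lists passed, fewer probe sets being tested. At a threshold of 0.01, 0 probe sets were higher and 0 lower, and 0 genes of the lists and 0 of the 9 genes passed, while limma gave an unadjusted p below 0.05 for 1578 with higher and 1748 with lower 3D signals. When single arrays were left out, the number of probe sets ranged from 0 to 72 for those higher and from 0 to 122 for those lower. The number of list genes past the threshold then ranged from 0 to 2 and that of the 9 genes from 0 to 2, where 0 stands for the fits without 3D replicate 1 or any 2D array. In the fits without a 2D array an unadjusted p below 0.05 was found for 782 to 1499 probe sets with higher and 1030 to 1601 with lower 3D signals. Every fit without an array has fewer degrees of freedom. Without 3D replicate 2, 72 probe sets were higher and 78 lower, and without 3D replicate 3 the numbers were 23 and 122. The reason for the counts of 0 was not tested. The counts differed by less than 1.5 times from those reported under the other priors, the minimum log2 difference of 1 and median centring. Deviations from the group means correlated at 0.0892, 0.374 and 0.223 between arrays of the same replicate number. Between arrays of unlike number they correlated at -0.327 to 0.167. Each 3D array thus had its highest r with the 2D array of its own number. These values do not settle whether the numbers pair the samples, and the reported fit used no pairing. With the replicate number as a block 30 probe sets were higher and 56 lower, 1 gene of the lists and 2 of the 9 genes passed. With this block limma gave an unadjusted p below 0.05 for 2132 probe sets with higher and 2313 with lower 3D signals. The adjusted p of ANKRD13C-DT (limma) was 0.0529 with the block, against 0.0329 without it, so that its call was lost.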
